A study of Saccharomyces cerevisiae with 18 samples.

Results

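Transcript levels of 56 ribosome biogenesis factors of budding yeast (Saccharomyces cerevisiae) were followed across 3 strains grown with and without oxygen. The factors were the genes whose symbol in the array's annotation begins with UTP, NOP, RRP or NOC followed by a number. They made up 56 of the 5449 yeast genes tested, and each had 1 probe set (a group of short probes for 1 transcript). Ribosome assembly starts in the nucleolus, where a long precursor RNA made by RNA polymerase I is folded, modified and cut while ribosomal proteins are added. The UTP proteins bind the precursor with the U3 small nucleolar RNA on the way to the small subunit, while many NOP, RRP and NOC proteins act on the large subunit, and some RRP proteins belong to the exosome, which trims RNA from its 3′ end. Their genes are known in yeast as one of the most tightly co-regulated sets, being transcribed in growing cells and lowered under many stresses.

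All strains shared a CEN.PK host without its own triose phosphate isomerase gene TPI1, and they carried a 2 μm multicopy plasmid on which POT1, the fission yeast isomerase gene, sustains growth on glucose. AAC, labelled the high producer, secreted an amylase behind the alpha factor leader from the TPI1 promoter. AAP, labelled the lower producer, secreted it with the same leader from the TEF1 promoter. NC carried the plasmid with no amylase. Each strain was grown in anaerobic and in aerobic batch culture at 30 °C and sampled in the early glucose phase at an optical density of about 1, with 3 biological replicates a group and 1 array for each, 18 in all. Each genotype was represented by 1 strain, so strain and amylase level cannot be told apart.

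Values are log2 signals of a probe set, and a difference of 1 is a 2-fold change. All 56 probe sets lay above the background of 5.58 log2 units on all 18 arrays, the background being the level under which 95% of the fission yeast probe sets on the array fell. Array medians over the tested probe sets lay between 7.08 and 7.13, and the host TPI1 was at background throughout, at 5.23 to 5.52. The fission yeast tpi1 probe set, which reads the plasmid's isomerase gene, stood at 8.97 to 10.5 on the AAC arrays, at 12.38 to 12.48 on all AAP arrays but 1, and at 6.17 to 7.29 on the NC arrays. One array went against its label. On the array labelled aerobic AAP replicate 3 this probe set read 9.24, against 12.42 and 12.38 on the other aerobic AAP arrays and 8.97 to 9.41 on the aerobic AAC arrays. HES1, an oxysterol-binding protein gene, read 9.24 there, against 5.55 and 5.54 on the other aerobic AAP arrays and 9.19 to 9.27 on the aerobic AAC arrays. Of the 56 factors, 52 were lower on it than on both other aerobic AAP arrays, and 46 were nearer to the aerobic AAC mean. For comparisons that hold aerobic AAP, the main counts, medians and calls of the factors are given with and without it. It is called by its label. Given with all arrays only are the counts of factors whose arrays were apart, and the oxygen effect in AAP of polymerase, regulator and stress genes. The array also adds to the shared spread of the other comparisons, and counts without it are given for only some of these.

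Over all factors together, the arrays fell into higher and lower levels. Relative to each gene's mean over 18 arrays, the median factor stood at -0.19, -0.22 and -0.18 log2 units on the anaerobic AAC arrays, against -0.08, -0.08 and -0.11 on the aerobic ones. In AAP it stood at 0.20, 0.10 and 0.11 on the anaerobic arrays, against 0.20, 0.21 and -0.10 on the aerobic ones. In NC it stood at -0.12, -0.17 and -0.20 on the anaerobic arrays, against 0.22, 0.21 and 0.18 on the aerobic ones. The factors were thus high in aerobic NC, in anaerobic AAP and on the other aerobic AAP arrays, and lower elsewhere. Replicates of a group differed by a median standard deviation of 0.0345 log2 units over the factors in aerobic NC, of 0.0764 to 0.0854 in anaerobic NC and in anaerobic and aerobic AAC and anaerobic AAP, and of 0.185 in aerobic AAP, where the array named above was included. Since RNA came from whole cultures, fewer cells of a type and less RNA per cell cannot be told apart.

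**Figure D1:**
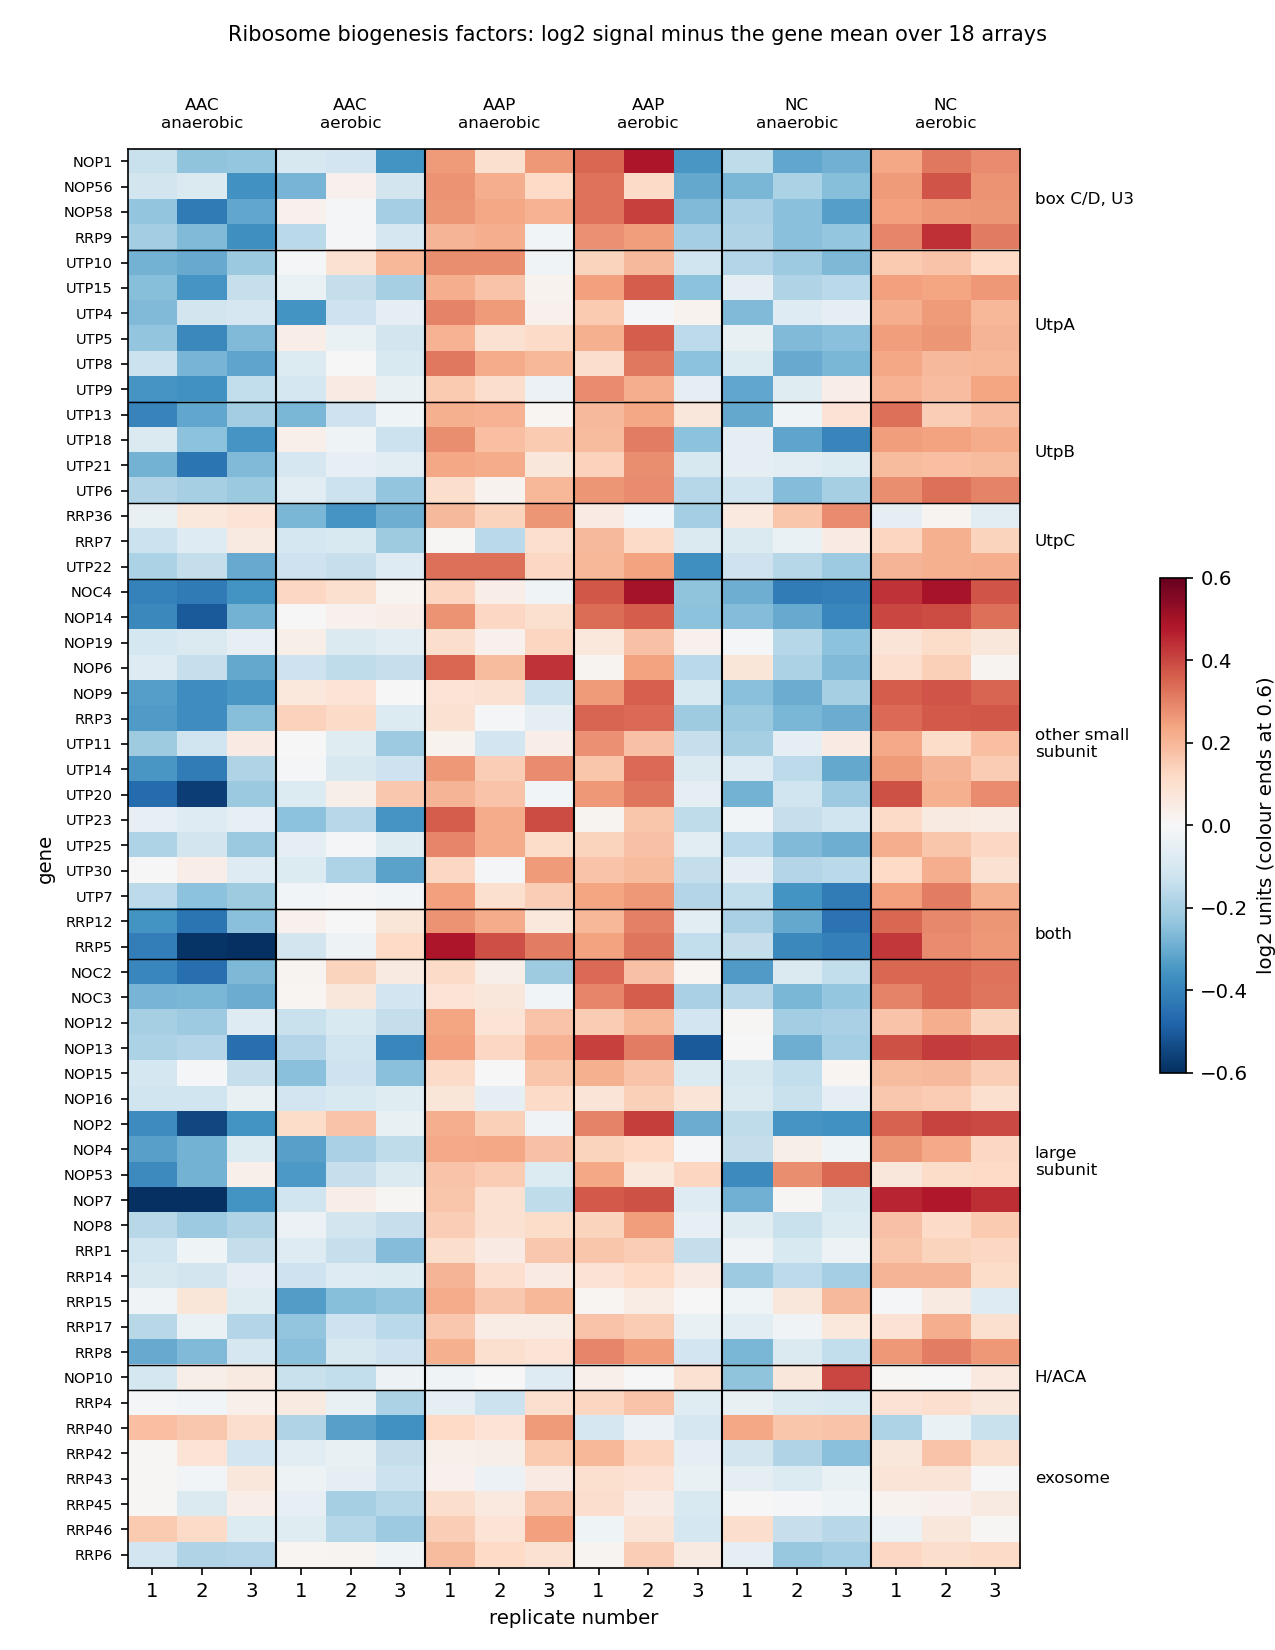
Each row is 1 of the 56 factors, ordered by role, and each column 1 of the 18 arrays, with colour for the log2 signal minus the gene's mean over all arrays. The aerobic NC columns are red for most genes, with median deviations of 0.18 to 0.22, the anaerobic AAC columns are blue at -0.22 to -0.18, and the last aerobic AAP column differs from the other aerobic AAP columns.

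In NC, the strain without amylase, most factors fell in anaerobic culture. Of the 56 factors, 42 were called lower and 2 higher (limma, adjusted p under 0.05 over all 5498 probe sets tested), with a median difference, anaerobic minus aerobic, of -0.36 log2 units. Over all probe sets tested 28.0% were called lower and 22.2% higher, with a median of -0.02. On 49 factors all 3 anaerobic arrays lay below all 3 aerobic ones, and on 2 they lay above, where 35.3% and 27.5% of all probe sets did so. With the array labelled aerobic AAP replicate 3 left out, which adds only to the shared spread here, 48 were called lower and 2 higher, against 31.6% and 24.6% of all probe sets, the added ones being RRP4, RRP7, RRP17, RRP43, UTP11 and UTP23. Of the 2 called higher, RRP40 and RRP36, RRP36 was not called without anaerobic NC replicate 3 or aerobic NC replicate 1 or 3 (adjusted p = 0.0997, 0.0597 and 0.0602), and 4 were called higher without anaerobic NC replicate 1. No factor changed 2-fold with all arrays, and the largest fall was that of NOC4, which pairs with Nop14 on the small subunit, at -0.81 ± 0.127 (SE).

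Factors of the box C/D particles, which guide ribose methylation and, with the U3 RNA, the first cuts, fell together. NOP1 (the methyltransferase fibrillarin), NOP56, NOP58 and RRP9, whose protein is specific to U3, were all called lower, 4 of 4, with a median of -0.53. RRP9 read 7.33, 7.26 and 7.28 in anaerobic NC, against 7.81, 7.95 and 7.83 in aerobic NC. The groups were apart, and the difference was -0.57 ± 0.102 (limma, adjusted p = 0.000265). In AAC the same gene read 7.31, 7.25 and 7.14 in anaerobic culture, against 7.35, 7.50 and 7.41 in aerobic culture. These groups did not overlap either, but the difference of -0.19 ± 0.102 was not called with all arrays (adjusted p = 0.142).

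UtpA and UtpB are the protein complexes that bind the 5′ end of the precursor first. All 6 measured UtpA members (UTP4, UTP5, UTP8, UTP9, UTP10 and UTP15) were called lower in anaerobic NC, with a median of -0.38, as were all 4 of UtpB (UTP6, UTP13, UTP18 and UTP21), with a median of -0.40. UTP10, the longest protein of UtpA, read 7.62, 7.58 and 7.52 in anaerobic NC, against 7.95, 7.97 and 7.91 in aerobic NC. All aerobic arrays were higher, and the difference was -0.37 ± 0.0849 (limma, adjusted p = 0.00194). UTP6 read 7.26, 7.12 and 7.18 in anaerobic NC, against 7.66, 7.71 and 7.68 in aerobic NC. The aerobic arrays again lay above all anaerobic ones, at a difference of -0.50 ± 0.0920 (adjusted p = 0.000364).

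Of the 3 members of UtpC, a later-joining complex, 1 was called lower and 1 higher. Over all probe sets 28.0% and 22.2% were, so these few genes did not stand out. UTP22 read 7.17, 7.12 and 7.07 in anaerobic NC, against 7.50, 7.50 and 7.51 in aerobic NC, and it was called lower at -0.38 ± 0.115 (limma, adjusted p = 0.0116). RRP36, whose protein joins the same complex, read 6.90, 7.01 and 7.13 in anaerobic NC, against 6.79, 6.86 and 6.78 in aerobic NC. It was 1 of the 2 factors called higher, at 0.21 ± 0.0674 (limma, adjusted p = 0.0192), but lost its call without some single NC arrays, as given above. RRP7 was not called, at -0.18.

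Of the 13 other small subunit factors 10 were called lower in anaerobic NC, with a median of -0.41. NOP9, an RNA-binding protein with Pumilio-like repeats, read 6.59, 6.54 and 6.64 in anaerobic NC, against 7.20, 7.22 and 7.19 in aerobic NC. The gap between the groups was several times their spread, and the difference was -0.61 ± 0.0862 (limma, adjusted p = 2.61e-05). UTP25 was lower by a difference of -0.41 ± 0.0632 (adjusted p = 7.05e-05). The 3 that were not called were NOP6, UTP11 and UTP23. UTP23, which acts in the release of the snR30 RNA, read 8.13, 8.01 and 8.03 in anaerobic NC, against 8.27, 8.21 and 8.20 in aerobic NC. Its arrays did not overlap, at a difference of -0.16 ± 0.0710 (adjusted p = 0.0701).

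RRP5 and RRP12 serve both subunits, RRP5 as a long RNA-binding protein of the early precursor and RRP12 as a factor in export, and both were called lower. RRP12 read 8.05, 7.94 and 7.80 in anaerobic NC, against 8.59, 8.53 and 8.51 in aerobic NC. The difference was -0.62 ± 0.0856 (limma, adjusted p = 2.36e-05), with no overlap. RRP5 differed by -0.64 ± 0.109 (adjusted p = 0.000177).

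Among 16 large subunit factors 13 were called lower in anaerobic NC, with a median of -0.28. RRP14 had the smallest p of all factors, reading 8.92, 8.98 and 8.93 in anaerobic NC, against 9.34, 9.34 and 9.24 in aerobic NC. Its groups were apart at a difference of -0.37 ± 0.0433 (limma, adjusted p = 4.05e-06). NOP2, a methyltransferase of the 25S RNA, differed by -0.67 ± 0.136, and NOP7, which works in a complex with Erb1 and Ytm1, by -0.59 ± 0.122. NOC2 and NOC3, which bind each other and act in moving large subunit precursors through the nucleus, differed by -0.53 ± 0.0915 and -0.54 ± 0.101. The 3 not called were NOP53, RRP15 and RRP17, of which NOP53 had the widest spread of any factor among the anaerobic NC arrays (SD 0.403). RRP15 read 8.34, 8.44 and 8.56 in anaerobic NC, against 8.35, 8.42 and 8.29 in aerobic NC, and these ranges overlapped.

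NOP10, the single member from the H/ACA particles that guide pseudouridylation, varied widely between replicates. It read 9.40, 9.71 and 10.04 in anaerobic NC, against 9.65, 9.64 and 9.70 in aerobic NC. The anaerobic arrays lay on both sides of the aerobic ones, and the difference of 0.06 ± 0.106 was not called (limma, adjusted p = 0.689).

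Of the 7 exosome subunits 2 were called lower and 1 higher in anaerobic NC, with a median of -0.11. These shares lay near or below the 28.0% and 22.2% of all probe sets called there, so the subunits did not stand out. RRP6, the nuclear exonuclease of the complex, read 6.80, 6.62 and 6.64 in anaerobic NC, against 6.97, 6.96 and 6.96 in aerobic NC, a difference of -0.28 ± 0.0487 (limma, adjusted p = 0.000232). RRP42 of the ring was the other subunit called lower. RRP40, an RNA-binding subunit of the cap, went the other way, reading 8.18, 8.12 and 8.12 in anaerobic NC, against 7.77, 7.91 and 7.82 in aerobic NC. All its anaerobic arrays were higher, by 0.31 ± 0.0566 (adjusted p = 0.000321).

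In AAC, the high producer, anaerobic culture split the factors. Of the 56, 17 were called lower and 5 higher in anaerobic AAC, with a median difference of -0.07 (limma). Over all probe sets tested 22.8% were called lower and 21.7% higher, with a median of 0.00. The share of lower calls stood somewhat above that of all probe sets and the share of higher calls below it. With the trend on coding length removed, as described further on, 12 were called lower, near the 20.8% of all probe sets. Anaerobic and aerobic arrays were apart downwards on 24 factors and upwards on 6, where 29.6% and 27.5% of all probe sets were. The 17 that were lower were all lower in NC too, and they included NOC2, NOC3, NOC4, NOP2, NOP7, NOP9 and NOP14. None of the 4 box C/D factors was called in AAC with all arrays. With the array labelled aerobic AAP replicate 3, in neither group, left out of the shared spread, 22 factors were called lower and 7 higher. Over all probe sets 26.6% and 25.1% were. Of the box C/D factors NOP58 and RRP9 were then called lower (limma, -0.26 and -0.19, adjusted p = 0.00191 and 0.0205). The 17 lower calls became 11 without anaerobic AAC replicate 2, and the 5 higher calls became 3 without anaerobic AAC replicate 1 or aerobic AAC replicate 3.

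RRP5 read 7.79, 7.62 and 7.61 in anaerobic AAC, against 8.09, 8.17 and 8.32 in aerobic AAC. The groups were apart, at -0.53 ± 0.109 (limma, adjusted p = 0.00101). NOP9 read 6.51, 6.47 and 6.49 in anaerobic AAC, against 6.90, 6.92 and 6.84 in aerobic AAC. Its difference of -0.40 ± 0.0862 (adjusted p = 0.00144) also left no overlap. RRP12 read 7.88, 7.80 and 7.99 in anaerobic AAC, against 8.27, 8.24 and 8.32 in aerobic AAC, a difference of -0.38 ± 0.0856 (adjusted p = 0.00180). RRP14, first by p in NC, read 9.04, 9.02 and 9.07 in anaerobic AAC, against 9.01, 9.06 and 9.05 in aerobic AAC. Its ranges coincided and the difference was 0.01 ± 0.0433 (adjusted p = 0.935).

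The 5 factors called higher in anaerobic AAC were RRP40, RRP36, RRP15, UTP23 and RRP46, a ring subunit of the exosome. RRP40 read 8.13, 8.12 and 8.06 in anaerobic AAC, against 7.77, 7.63 and 7.59 in aerobic AAC, a difference of 0.44 ± 0.0566 (limma, adjusted p = 1.18e-05). RRP36 read 6.80, 6.91 and 6.93 in anaerobic AAC, against 6.57, 6.49 and 6.55 in aerobic AAC, a difference of 0.34 ± 0.0674 (adjusted p = 0.000694). All anaerobic arrays of both genes lay above all aerobic ones. RRP15 read 8.34, 8.44 and 8.29 in anaerobic AAC, against 8.03, 8.11 and 8.13 in aerobic AAC, a difference of 0.27 ± 0.0554 (adjusted p = 0.000953). UTP23 read 8.10, 8.07 and 8.10 in anaerobic AAC, against 7.90, 7.98 and 7.80 in aerobic AAC, a difference of 0.20 ± 0.0710 (adjusted p = 0.0345). Neither of these genes overlapped between groups, but UTP23 lost its call when any single anaerobic AAC array, or aerobic AAC replicate 1 or 3, was left out (adjusted p between 0.0647 and 0.144).

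In AAP, the lower producer, few factors were called. With all arrays none was called lower and 5 higher in anaerobic AAP (limma), with a median difference of 0.03, where 17.2% of all probe sets were called lower and 21.2% higher. Arrays were apart downwards on 1 factor and upwards on 6, against 20.5% and 25.8% of all probe sets. Without the array labelled aerobic AAP replicate 3, 12 were called lower and 4 higher, with a median of -0.07, against 20.8% and 21.1% of all probe sets. The share of lower calls was thus near that of all probe sets and the share of higher calls below it. The 12 included NOC2, NOC3, NOC4, NOP2, NOP7, NOP9, NOP14 and RRP3, an RNA helicase, which were then lower in all 3 strains. The count of 5 also became 8 without aerobic AAP replicate 2 and 3 without anaerobic AAP replicate 1.

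The 5 factors called higher with all arrays were UTP23, RRP40, RRP36, RRP15 and NOP6. UTP23 read 8.52, 8.37 and 8.54 in anaerobic AAP, against 8.17, 8.32 and 8.0 in aerobic AAP, a difference of 0.32 ± 0.0710 (limma, adjusted p = 0.00239). RRP40 read 8.07, 8.03 and 8.21 in anaerobic AAP, against 7.85, 7.92 and 7.85 in aerobic AAP, a difference of 0.23 ± 0.0566 (adjusted p = 0.00463). Both genes were apart between the groups with all arrays. RRP36 read 7.04, 6.98 and 7.11 in anaerobic AAP, against 6.89, 6.83 and 6.64 in aerobic AAP, a difference of 0.25 ± 0.0674 (adjusted p = 0.00747). RRP15 read 8.59, 8.53 and 8.57 in anaerobic AAP, against 8.38, 8.41 and 8.36 in aerobic AAP, a difference of 0.18 ± 0.0554 (adjusted p = 0.0188). With the array labelled aerobic AAP replicate 3 left out, these 4 were still called higher, at 0.23, 0.22, 0.18 and 0.17 in the order given, and NOP6 was not called. RRP15 was also not called without anaerobic AAP replicate 1 (adjusted p = 0.0634).

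NOP9 shows how the single array bears on AAP. It read 6.92, 6.93 and 6.71 in anaerobic AAP, against 7.10, 7.20 and, on the array in question, 6.75 in aerobic AAP. With all arrays the groups overlapped, at -0.16 ± 0.0862 (limma, adjusted p = 0.157), and without that array the difference was -0.29 ± 0.0591 (adjusted p = 0.000979). RRP9 read 7.72, 7.73 and 7.50 in anaerobic AAP, against 7.79, 7.76 and 7.31 in aerobic AAP, and its difference was 0.03 ± 0.102 with that array and -0.13 ± 0.0712 without it, called in neither case (adjusted p = 0.171 without it).

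Set side by side, RRP36 and RRP40 were called higher in anaerobic culture in AAC, AAP and NC, with and without the array. RRP15 was called higher in AAC and AAP and not in NC. In the gene order of RefSeq's table for the yeast reference strain RRP15 is the neighbour of NOC4, the factor with the largest fall in NC, and no other pair of factors lies side by side. NOC4 differed by -0.48 ± 0.127 in AAC and by -0.81 ± 0.127 in NC, while RRP15 differed by 0.27 ± 0.0554 and 0.09 ± 0.0554 in the same strains.

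**Figure D2:**
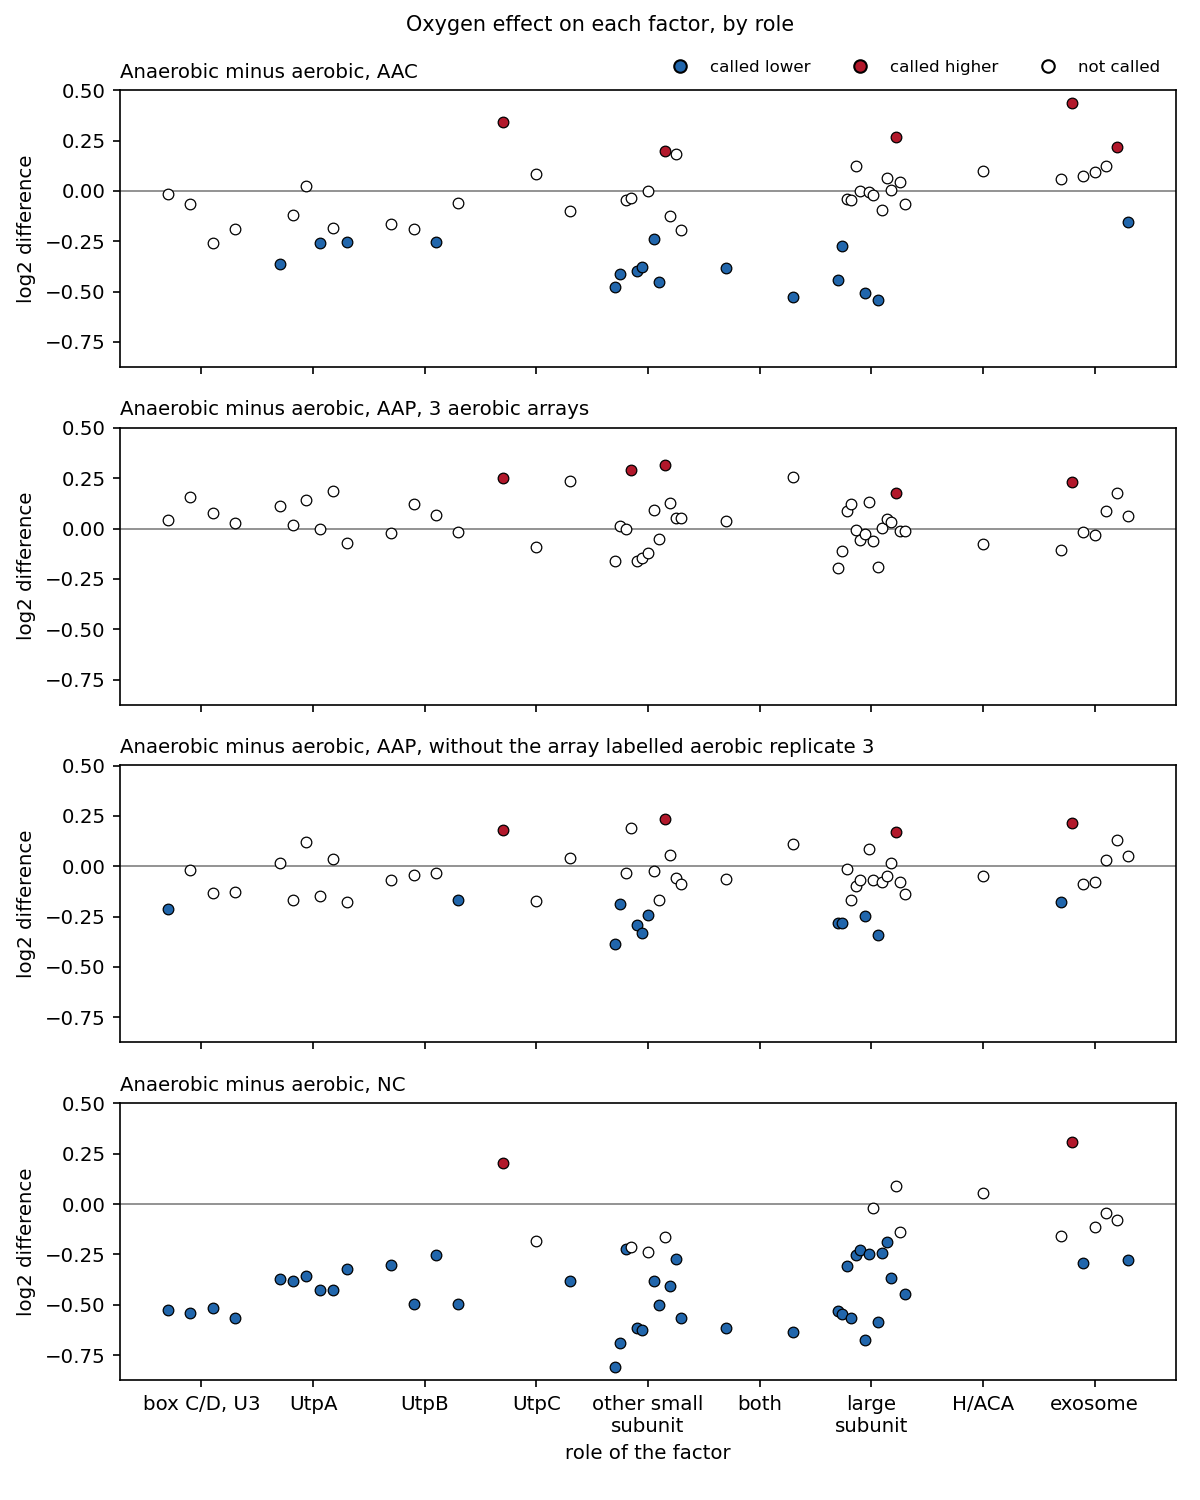
Each point is 1 factor, placed by its role, with the log2 difference anaerobic minus aerobic on the vertical axis and fill for the limma call. From top to bottom the panels show AAC (17 lower, 5 higher), AAP with 3 aerobic arrays (none lower, 5 higher), AAP without the array labelled aerobic replicate 3 (12 lower, 4 higher) and NC (42 lower, 2 higher).

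Among aerobic cultures the factors were lower in AAC than in NC. All 56 differences were below 0, 33 were called lower and none higher (limma), and the median was -0.29. Over all probe sets 9.99% were called lower and 9.42% higher, with a median of -0.02. On 54 of 56 factors all AAC arrays lay below all NC arrays, where 31.1% of all probe sets did so and 20.6% lay above. Among those called were 13 of 16 large subunit factors, 3 of 4 box C/D factors and 3 of 4 members of UtpB. So were 2 of 3 members of UtpC, 2 of 6 of UtpA and 2 of 7 exosome subunits. The largest difference was that of NOP13, an RNA-binding protein of the nucleolus, at -0.63 ± 0.171.

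RRP14 read 9.01, 9.06 and 9.05 in aerobic AAC, against 9.34, 9.34 and 9.24 in aerobic NC, a difference of -0.27 ± 0.0433 (limma, adjusted p = 0.00160). NOP4, an RNA-binding protein of the large subunit pathway, read 7.89, 8.02 and 8.06 in aerobic AAC, against 8.48, 8.44 and 8.34 in aerobic NC, a difference of -0.43 ± 0.0693 (adjusted p = 0.00160). Neither gene overlapped between the strains. NOP15 and NOP16, of the same pathway, differed by -0.39 ± 0.0727 (adjusted p = 0.00344) and -0.23 ± 0.0455 (adjusted p = 0.00425). RRP40, called higher in anaerobic culture in each strain, was called lower here, at -0.17 ± 0.0566 (adjusted p = 0.0487), though its arrays overlapped. With the replicate number as a block RRP40 was not called (limma, adjusted p = 0.0613), while 39 factors were called lower, 32 of them among the 33. The count of 33 became 18, 15 and 19 without aerobic NC replicate 1, 2 or 3 and 16 without aerobic AAC replicate 3. Without the array labelled aerobic AAP replicate 3, which is in neither group but adds to the shared spread, it became 48, all lower, against 17.0% called lower and 13.0% called higher over all probe sets.

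Between aerobic AAP and aerobic NC no factor was called (limma), with 2 at an unadjusted p under 0.05 and a median difference of -0.09. Very few probe sets of any kind were called, 0.0546% lower and 0.146% higher. Arrays were apart downwards on 3 factors and upwards on none, where 8.11% and 6.18% of all probe sets were. Without the array labelled aerobic AAP replicate 3 the median was 0.01 and again none was called, against 0.400% and 0.200% of all probe sets.

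Between aerobic AAC and aerobic AAP the result depended on that array. With all arrays 8 factors were called lower in AAC and none higher (limma), with a median of -0.18, where 1.58% of all probe sets were called lower and 2.38% higher. Arrays were apart downwards on 14 factors and upwards on none, against 9.00% and 8.09% of all probe sets. Without the array 46 factors were called lower and none higher, with a median of -0.29, against 15.7% and 12.5% of all probe sets. With the replicate number as a block, 5 of the 56 were called lower, and NOP15, RRP40 and UTP23 were no longer called (adjusted p = 0.0512, 0.0662 and 0.0562). The count also became 0 without aerobic AAC replicate 1 or 2 or aerobic AAP replicate 1 or 2, and 1 without aerobic AAC replicate 3. Leaving out an array of another group, which enters only through the shared spread, gave 2 without anaerobic AAC replicate 1 or aerobic NC replicate 1, 3 without anaerobic AAP replicate 1 or aerobic NC replicate 2 or 3, 4 without anaerobic NC replicate 2, and 5 without anaerobic AAC replicate 2 or anaerobic AAP replicate 2.

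The 8 factors called with all arrays were RRP14, RRP15, RRP17, NOP4, NOP15, NOP16, RRP40 and UTP23, and 6 of them belong to the large subunit. RRP15 read 8.03, 8.11 and 8.13 in aerobic AAC, against 8.38, 8.41 and 8.36 in aerobic AAP. Its groups were apart with all 3 AAP arrays, at -0.29 ± 0.0554 (limma, adjusted p = 0.0187). NOP4 read 7.89, 8.02 and 8.06 in aerobic AAC, against 8.35, 8.33 and 8.20 in aerobic AAP, and it was also apart, at -0.30 ± 0.0693 (adjusted p = 0.0345). RRP17, an exonuclease that trims a 5′ end in the large subunit pathway, and NOP16 differed by -0.27 ± 0.0634 and -0.19 ± 0.0455 (adjusted p = 0.0378 for both). All 8 were also called without the array labelled aerobic AAP replicate 3, with RRP15 at -0.30, NOP4 at -0.35, RRP17 at -0.34 and NOP16 at -0.20.

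Among anaerobic cultures few factors were called between AAC and NC. Of the 56 factors 2 were called lower in AAC and none higher (limma), with a median of -0.05, where 5.29% of all probe sets were called lower and 6.71% higher. Arrays were apart downwards on 6 factors and upwards on 3, against 15.0% and 14.3% of all probe sets. NOP7 read 7.42, 7.36 and 7.71 in anaerobic AAC, against 7.78, 8.07 and 7.97 in anaerobic NC, a difference of -0.44 ± 0.122 (adjusted p = 0.0271). UTP21 of UtpB read 7.40, 7.25 and 7.42 in anaerobic AAC, against 7.63, 7.62 and 7.60 in anaerobic NC, a difference of -0.26 ± 0.0744 (adjusted p = 0.0331). Both were apart, although the highest AAC array of NOP7 lay just under the lowest NC array. The count became 0 without anaerobic AAC replicate 1 or 2 or anaerobic NC replicate 2 or 3, 4 without anaerobic AAC replicate 3, and 5 without anaerobic NC replicate 1.

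Anaerobic AAP, by contrast, had higher levels of the factors than anaerobic NC. Of the 56, 33 were called higher and none lower (limma), with a median of 0.27, where 12.9% of all probe sets were called higher and 8.06% lower. Arrays were apart upwards on 40 factors and downwards on none, against 22.8% and 15.2% of all probe sets. All 4 box C/D factors, both factors of both subunits, 4 of 6 members of UtpA and 3 of 4 of UtpB were called. So were 10 of 13 other small subunit factors, 7 of 16 large subunit factors and 2 of 7 exosome subunits. Without anaerobic AAP replicate 1 or 2 the count became 12 or 21, and without anaerobic NC replicate 2 or 3 it became 15 or 12.

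RRP14 read 9.34, 9.23 and 9.18 in anaerobic AAP, against 8.92, 8.98 and 8.93 in anaerobic NC, a difference of 0.31 ± 0.0433 (limma, adjusted p = 0.000381). UTP25 read 7.27, 7.20 and 7.09 in anaerobic AAP, against 6.82, 6.71 and 6.69 in anaerobic NC, a difference of 0.45 ± 0.0632 (adjusted p = 0.000440). RRP5 read 8.69, 8.59 and 8.51 in anaerobic AAP, against 8.06, 7.82 and 7.79 in anaerobic NC, a difference of 0.71 ± 0.109 (adjusted p = 0.000938). In all 3 genes every AAP array was above every NC array. RRP6 was higher by 0.30 ± 0.0487 (adjusted p = 0.00160), and UTP23 by 0.42 ± 0.0710 (adjusted p = 0.00175).

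The widest gap between strains lay between anaerobic AAC and anaerobic AAP. In AAC 43 of the 56 factors were called lower and none higher (limma), with a median of -0.36, where 19.7% of all probe sets were called lower and 13.3% higher. Arrays were apart downwards on 45 factors and upwards on none, against 29.9% and 20.1% of all probe sets. The 43 took in all 4 box C/D factors, all 6 of UtpA, all 4 of UtpB and 1 of 3 of UtpC. They further held 11 of 13 other small subunit factors and both factors of both subunits. The rest were 14 of 16 large subunit factors and 1 of 7 exosome subunits. RRP5 read 7.79, 7.62 and 7.61 in anaerobic AAC, against 8.69, 8.59 and 8.51 in anaerobic AAP. The groups lay far apart, at -0.93 ± 0.109 or 1.90-fold (adjusted p = 4.36e-05), the largest difference of any factor in the 9 comparisons of 2 groups. UTP21 read 7.40, 7.25 and 7.42 in anaerobic AAC, against 7.92, 7.91 and 7.75 in anaerobic AAP, a difference of -0.50 ± 0.0744 (adjusted p = 0.000271). NOP4 and RRP12 differed by -0.44 ± 0.0693 (adjusted p = 0.000407) and -0.53 ± 0.0856 (adjusted p = 0.000475). Neither of these groups holds the array that went against its label.

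**Figure D3:**
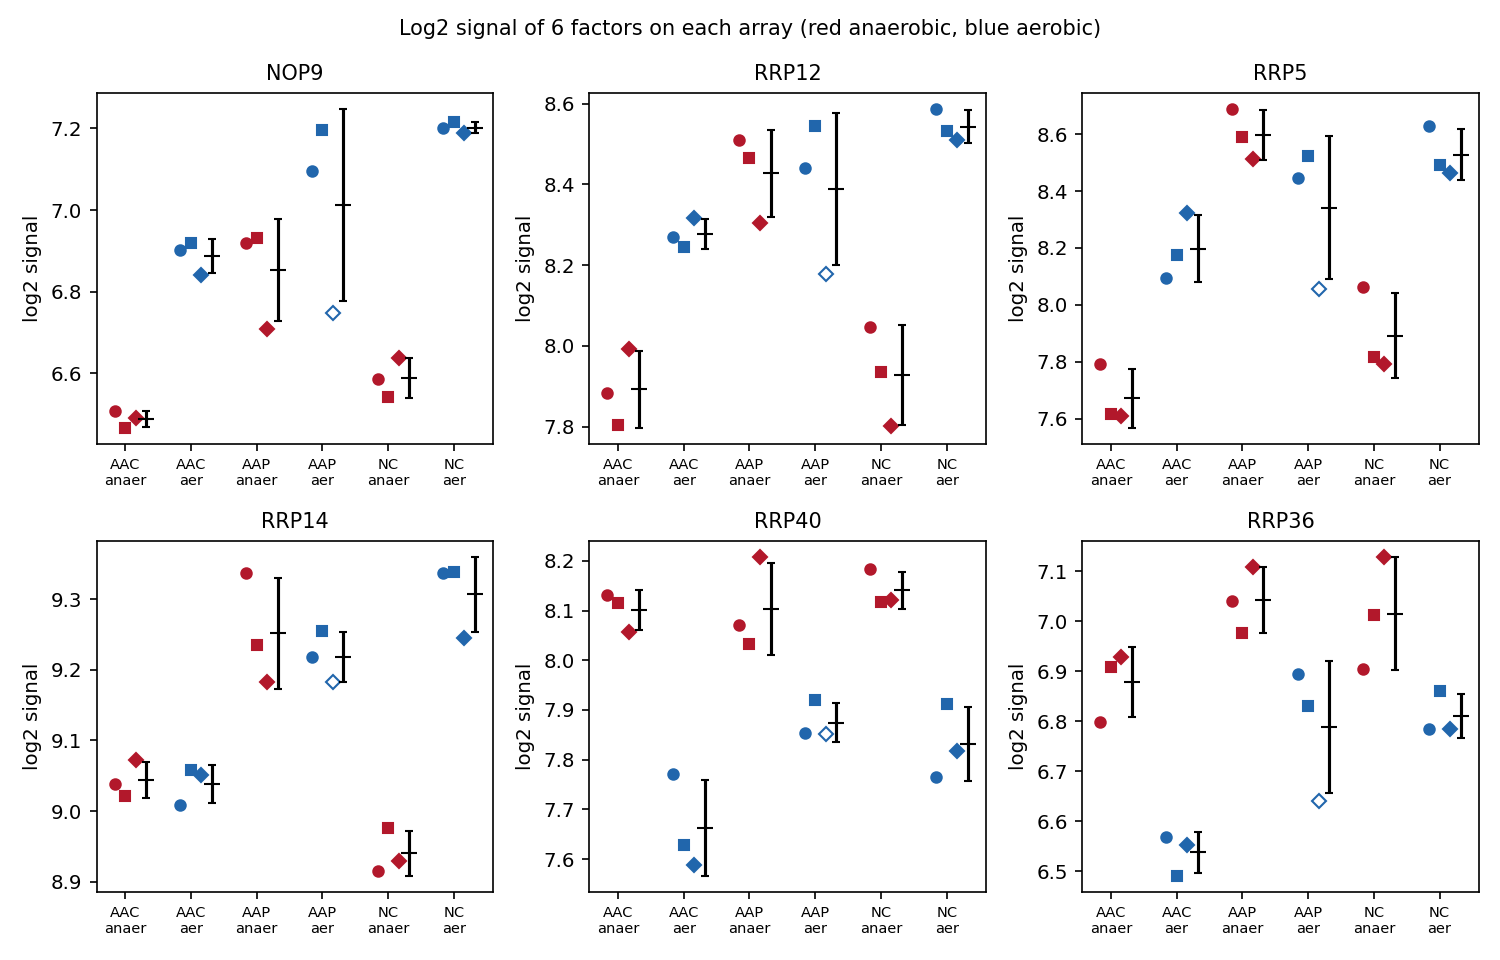
Points are log2 signals on single arrays (circle, square and diamond for replicates 1, 2 and 3), and the bar beside them is the group mean ± SD of 3 arrays, with an open diamond for the array labelled aerobic AAP replicate 3. Vertical axes differ between panels and do not start at 0. NOP9, RRP12 and RRP5 are low in anaerobic AAC and NC, RRP14 has 3 low groups, and RRP40 and RRP36 are higher in anaerobic than in aerobic culture in each strain.

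Whether oxygen acted differently in the strains was tested as an interaction, the anaerobic minus aerobic difference of 1 strain minus that of another. The comparisons share groups with those above, so they are no further support for them. For AAP against NC 25 factors had a positive interaction and none a negative one (limma), with a median of 0.40, where 8.02% of all probe sets were called positive and 4.47% negative. RRP14 differed by 0.03 in AAP and by -0.37 in NC, an interaction of 0.40 ± 0.0612 (adjusted p = 0.00174). UTP25 differed by 0.13 in AAP and by -0.41 in NC, an interaction of 0.54 ± 0.0894 (adjusted p = 0.00316). RRP5 differed by 0.26 in AAP and by -0.64 in NC, an interaction of 0.89 ± 0.154 (adjusted p = 0.00376). RRP12 had an interaction of 0.65 ± 0.121 (adjusted p = 0.00635). Without the array labelled aerobic AAP replicate 3 RRP5 and UTP25 differed by 0.11 and 0.05 in AAP in place of 0.26 and 0.13, and the interactions of RRP14, UTP25, RRP5 and RRP12 were 0.38, 0.46, 0.75 and 0.55, all still called. The count without it was 26 and the median 0.30, where 6.06% of all probe sets were called positive and 3.86% negative. The count was 7 and 16 without anaerobic AAP replicate 1 and 2, 12, 9 and 14 without aerobic NC replicate 1, 2 and 3, and 11 and 14 without anaerobic NC replicate 2 and 3.

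For AAC against NC 1 factor had a positive interaction, RRP14, and none a negative one (limma), where 1.67% of all probe sets were called positive and 1.20% negative. RRP14 differed by 0.01 in AAC and by -0.37 in NC, an interaction of 0.37 ± 0.0612 (adjusted p = 0.00361). The median over the factors was 0.24, 54 of 56 were above 0, and 25 had an unadjusted p under 0.05. Without the array labelled aerobic AAP replicate 3, which enters here only through the shared spread, 21 were called positive, against 7.04% of all probe sets, and none negative, against 5.09%. The count was 4 without anaerobic NC replicate 1 and 2 without anaerobic AAC replicate 3, aerobic AAP replicate 1 or 2 or anaerobic AAP replicate 2.

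For AAC against AAP 2 factors had a negative interaction and none a positive one (limma), with a median of -0.14, where 2.15% of all probe sets were called negative and 1.40% positive. RRP5 differed by -0.53 in AAC and by 0.26 in AAP, an interaction of -0.78 ± 0.154 (adjusted p = 0.0125). UTP10 differed by -0.36 in AAC and by 0.11 in AAP, an interaction of -0.47 ± 0.120 (adjusted p = 0.0424). RRP5 read 8.45, 8.52 and, on the array labelled replicate 3, 8.06 in aerobic AAP. UTP10 read 7.93, 7.99 and 7.68 there. Without that array RRP5 alone was called, at -0.64 ± 0.121 (adjusted p = 0.00616), while UTP10, differing by 0.02 in AAP, stood at -0.38 ± 0.106 (adjusted p = 0.0515), and the median was -0.04, where 3.26% of all probe sets were called negative and 1.95% positive. The count ranged from 1 to 8 when single arrays were left out, with 8 without aerobic AAP replicate 2 and 4 without anaerobic NC replicate 1. With the trend on coding length removed, as described further on, neither was called (adjusted p = 0.0562 for RRP5 and 0.177 for UTP10).

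**Figure D4:**
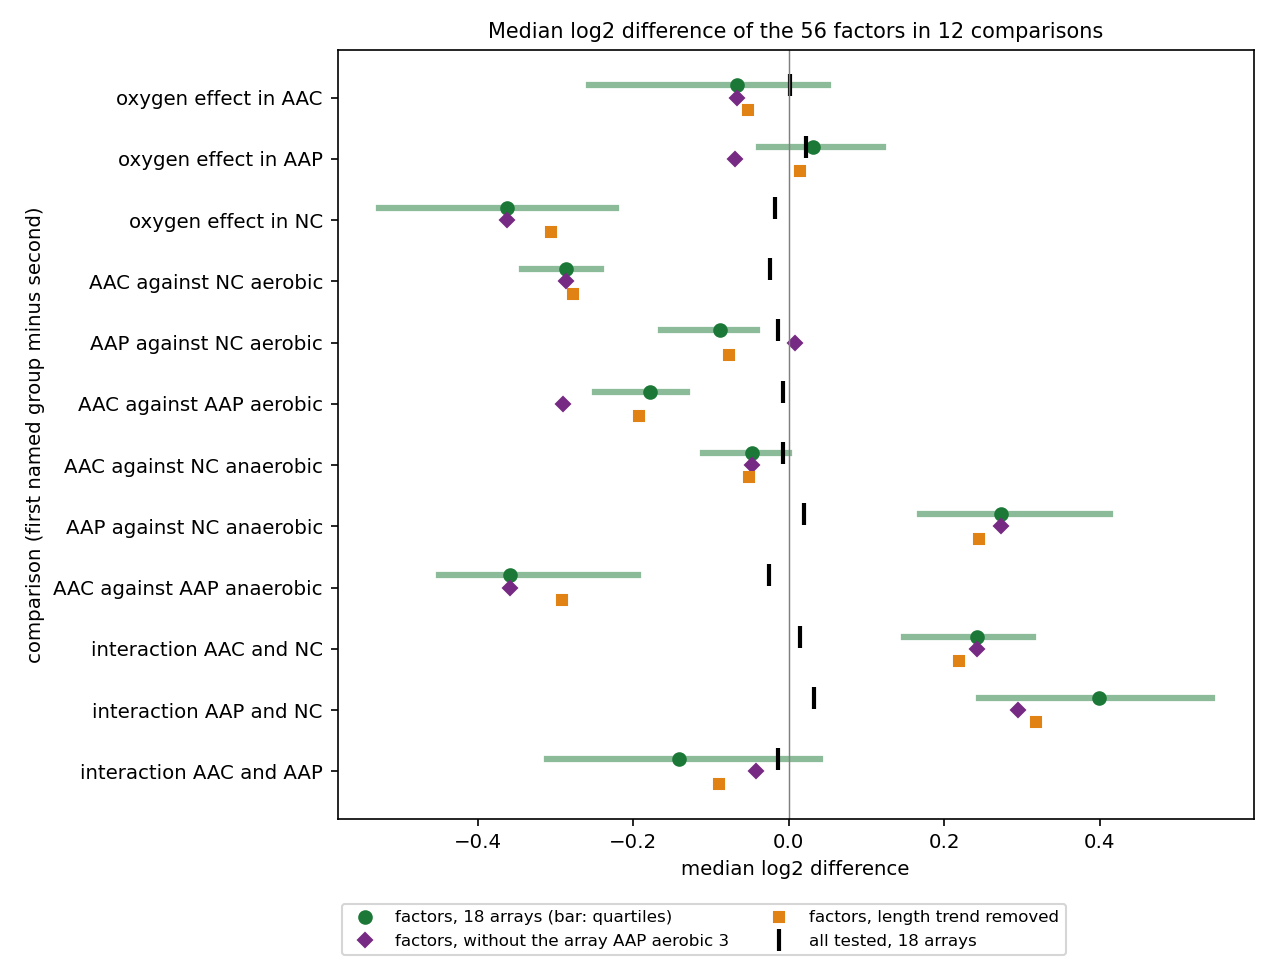
Each row is 1 of 12 comparisons and the horizontal axis is the median log2 difference of the 56 factors, the first named group minus the second, where an oxygen effect is anaerobic minus aerobic and an interaction is a difference of oxygen effects. Circles with quartile bars use 18 arrays, diamonds leave out the array labelled aerobic AAP replicate 3, squares have the coding length trend removed, and ticks give the median of all probe sets tested. The circles lie near -0.36 for the oxygen effect in NC and for anaerobic AAC against AAP, and at 0.27 for anaerobic AAP against NC.

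Coding length was linked with these differences over all genes, and the factors were somewhat longer than the rest, with a median coding length of 1510.5 bp (177 to 7482) against 1230 bp over all tested. Coding lengths were taken from RefSeq gene models. Across the 5498 probe sets Spearman's correlation of the oxygen effect with length was -0.25 in AAC, 0.15 in AAP and -0.11 in NC, and across the 56 factors it was -0.77, 0.05 and -0.62 in the same order of strains. Between strains it was -0.40 over all and -0.72 over the factors for anaerobic AAC against AAP, 0.33 and 0.54 for anaerobic AAP against NC, -0.17 and -0.41 for anaerobic AAC against NC, 0.05 and -0.17 for aerobic AAC against NC, -0.13 and -0.55 for aerobic AAP against NC, and 0.16 and 0.36 for aerobic AAC against AAP. For the interactions it was -0.60 and -0.79 between AAC and AAP, the strongest link of the 12 comparisons, 0.31 and 0.58 between AAP and NC, and -0.18 and -0.22 between AAC and NC. When the array labelled aerobic AAP replicate 3 was left out it became 0.10 and -0.09 for the oxygen effect in AAP, 0.02 and -0.41 for aerobic AAP against NC, and 0.04 and 0.02 for aerobic AAC against AAP, while the interactions of AAP with NC and of AAC with AAP stood at 0.31 and 0.61 and at -0.55 and -0.79. The link also differed between replicates of a group. Over all probe sets, the correlation of a gene's deviation from its mean with length was 0.29, 0.385 and -0.03 on the anaerobic AAP arrays. On the anaerobic NC arrays it was 0.01, -0.13 and -0.20, and on the anaerobic AAC arrays -0.15, -0.28 and -0.21. These are descriptions over genes that share arrays and, among the factors, roles, and they carry no test.

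The longer factors showed the larger falls in anaerobic NC. When all tested genes were cut into 5 bins of equal size by length, from the shortest to the longest, the factors' median oxygen effect in NC was -0.08, -0.19, -0.31, -0.54 and -0.40, while that of all genes was 0.04, 0.00, -0.04, -0.08 and -0.01. For anaerobic AAC against AAP it was -0.07, -0.15, -0.30, -0.42 and -0.48, against 0.04, 0.01, 0.01, -0.08 and -0.15 for all genes. The factors thus stood below the other genes in every bin, although the bins held only 2, 16, 9, 15 and 14 of them. For aerobic AAC against NC the factors' medians were -0.12, -0.27, -0.29, -0.32 and -0.27, with no steady order beyond the shortest bin. With all arrays, the 17 factors lower in both AAC and NC had a median length of 2133 bp. The 25 lower in NC alone had 1455 bp, and the 8 called in no strain 906 bp. Without the array labelled aerobic AAP replicate 3, the 8 factors lower in all 3 strains had a median of 1924.5 bp. The 14 lower in AAC and NC only then had 2184 bp, and the 20 called lower in NC alone 1258.5 bp. The 4 lower in NC and AAP only had 1032 bp, and the 3 called in no strain 678 bp. RRP36 and RRP40, higher in each strain, have 903 and 723 bp, and UTP23 and RRP15 have 765 and 753 bp.

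With the trend on length removed from each array, the oxygen effect in AAC had 12 factors called lower and 3 higher (limma), against 17 and 5 without the correction, where 20.8% and 24.8% of all probe sets were called. The lower calls in AAC thus no longer stood above the share of all probe sets. In AAP 2 were called lower and 5 higher, against none and 5, where 18.7% and 22.3% of all probe sets were called. In NC 44 were called lower and 2 higher, of which 42 in all were among the 44 called without the correction, where 26.4% and 26.9% of all probe sets were called. The medians were -0.05, 0.01 and -0.31 in the same order of strains. For aerobic AAC against NC 42 were called lower and for anaerobic AAC against AAP 43, with none higher, while for anaerobic AAP against NC 28 were called higher and none lower. Their medians were -0.28, -0.29 and 0.24, where 12.6% and 18.2% of all probe sets were called lower and 12.5% higher in the same comparisons, and 11.3%, 14.0% and 9.69% were called the other way.

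Over all genes the correlation with length was then between -0.06 and 0.08 in the 12 comparisons. Over the factors it was still -0.55 for the oxygen effect in AAC, -0.53 for that in NC, -0.48 for the interaction of AAC and AAP, -0.47 for aerobic AAP against NC, -0.40 for anaerobic AAC against AAP and 0.36 for the interaction of AAP and NC. In the other 6 comparisons it lay between -0.27 and 0.26, and it was 0.11, -0.11 and 0.10 for aerobic AAC against AAP, anaerobic AAC against NC and the interaction of AAC and NC. Whether length itself or another property of the longer genes moves with the result was not tested.

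**Figure D5:**
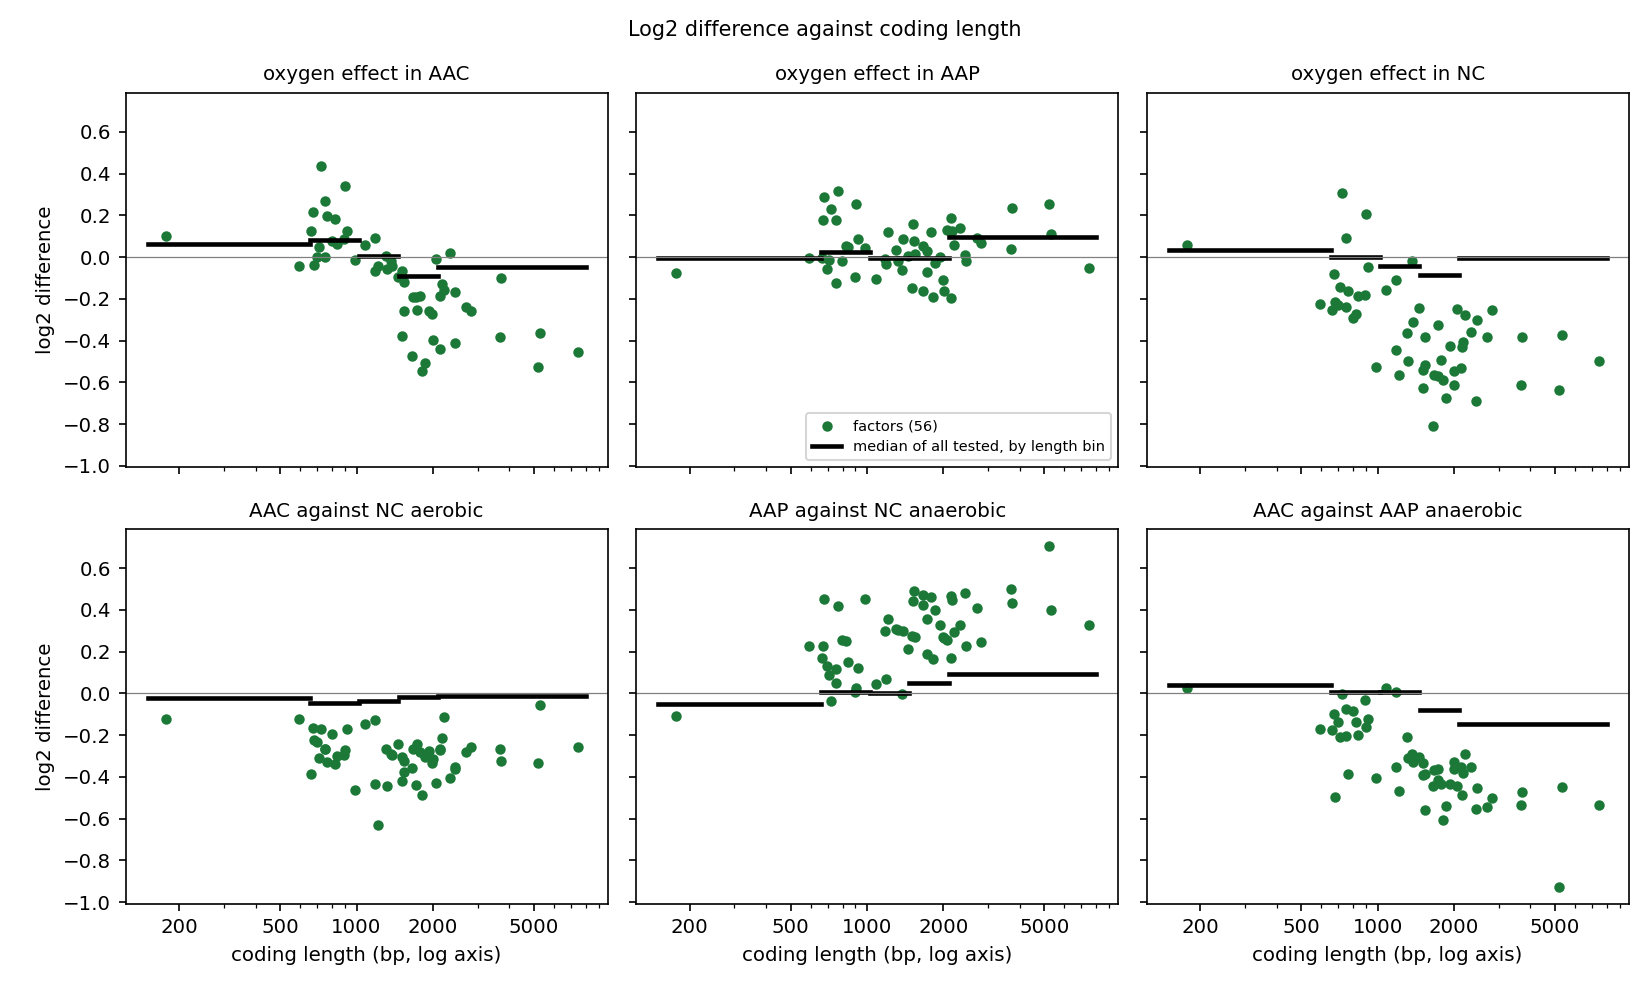
Each point is 1 factor, with coding length on a log axis and the log2 difference on the vertical axis for 6 comparisons, and black bars give the median of all tested genes in each of 5 length bins within the plotted range. Points fall with length in the oxygen effects in AAC and NC (Spearman -0.77 and -0.62) and in anaerobic AAC against AAP (-0.72), with little slope in aerobic AAC against NC (-0.17).

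Genes of the same pathway with other names were counted beside the factors, from lists drawn up for this purpose. Of 101 other ribosome assembly factors, such as the UtpB member PWP2 and the U3 protein IMP4, 75 were called lower and 1 higher in anaerobic NC (limma), with a median of -0.37, close to the -0.36 of the 56. ROK1, an RNA helicase of the small subunit, differed by -0.81 ± 0.0768 there (adjusted p = 3.75e-07). These stood against the 28.0% and 22.2% of all probe sets given above for NC. In anaerobic AAC 31 were lower and 4 higher, against 22.8% and 21.7% of all probe sets. In anaerobic AAP 7 were lower and 11 higher, both shares below the 17.2% and 21.2% of all probe sets, and without the array labelled aerobic AAP replicate 3 28 were lower and 4 higher, against 20.8% and 21.1%. For aerobic AAC against NC 63 were lower and 1 higher, against 9.99% and 9.42% of all probe sets. IMP4 was among the lower ones, at -0.36 ± 0.0609 (limma, adjusted p = 0.00194). For anaerobic AAP against NC 62 were higher and none lower, against 12.9% and 8.06%. For anaerobic AAC against AAP 73 were lower and 1 higher, against 19.7% and 13.3%.

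Of 31 subunits and factors of RNA polymerases I and III, which make the ribosomal and transfer RNAs, 17 were called lower and none higher in anaerobic NC, among them RPA190, the largest subunit of polymerase I, at -0.70 ± 0.127 (limma, adjusted p = 0.000295), and RPC82 of polymerase III at -0.61 ± 0.0868 (adjusted p = 3.22e-05). Over all probe sets 28.0% were called lower and 22.2% higher there. In anaerobic AAC 7 were lower and 3 higher, against 22.8% and 21.7%, so the list did not stand out. In anaerobic AAP, with all arrays, 1 was lower and 3 higher, against 17.2% and 21.2%. For aerobic AAC against NC 10 were lower and 2 higher, against 9.99% and 9.42%. RPC31 was lower there at -0.43 ± 0.0665 (limma, adjusted p = 0.00126) and RPC25 higher at 0.50 ± 0.107 (adjusted p = 0.00615). For anaerobic AAP against NC 12 were higher and none lower, against 12.9% and 8.06%. For anaerobic AAC against AAP 13 were lower and 2 higher, against 19.7% and 13.3%. Of 19 regulators of ribosome genes 5 were lower and 1 higher in anaerobic NC. These shares lay below the 28.0% and 22.2% of all probe sets called there, so the list did not stand out in NC. Among the 5 was TOD6, a repressor of the ribosome biogenesis genes, at -0.82 ± 0.100 (limma, adjusted p = 6.12e-06), as was the kinase gene SCH9, at -0.27 ± 0.0796 (adjusted p = 0.0102). In anaerobic AAC 7 regulators were lower and none higher, against 22.8% and 21.7%. In anaerobic AAP, with all arrays, 1 was lower and 3 higher, against 17.2% and 21.2%. For aerobic AAC against NC 1 was lower and none higher, against 9.99% and 9.42%. For anaerobic AAP against NC 5 were higher and none lower, against 12.9% and 8.06%. For anaerobic AAC against AAP 8 were lower and none higher, against 19.7% and 13.3%.

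General stress genes moved both in comparisons where the factors moved and in some where few or none did, and their part in the result was not tested. Of 24, 14 were called higher and 2 lower in anaerobic NC (limma), with a median of 0.40, against 22.2% and 28.0% of all probe sets. HXK1, a hexokinase gene, was higher by 3.33 ± 0.155 (adjusted p = 7.28e-11), while SOD2, the mitochondrial superoxide dismutase gene, which also answers to oxygen, differed by -2.58 ± 0.0585 (adjusted p = 1.51e-14). In anaerobic AAC 9 stress genes were higher and 4 lower, with a median of 0.17, against 21.7% and 22.8% of all probe sets. In anaerobic AAP, with all arrays, 5 were higher and 5 lower, with a median of -0.02, against 21.2% and 17.2%. For aerobic AAC against NC 22 of 24 were higher and none lower, with a median of 0.49, against 9.42% and 9.99%. HSP12, a small membrane-bound stress protein, was higher there by 1.41 ± 0.133 (limma, adjusted p = 3.72e-05). For anaerobic AAC against AAP 16 were higher and none lower, with a median of 0.40, against 13.3% and 19.7%. For anaerobic AAP against NC 5 were lower and none higher, with a median of -0.14, against 8.06% and 12.9%. For anaerobic AAC against NC, where 2 factors were called, 12 stress genes were higher and 1 lower, with a median of 0.26. Over all probe sets 6.71% and 5.29% were. For aerobic AAP against NC, where no factor was called, 5 were higher and none lower, against 0.146% and 0.0546%. Without the array labelled aerobic AAP replicate 3 it was again 5 and none, against 0.200% and 0.400%.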

How the data were processed

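RNA from whole cultures, 250 ng for each array, was labelled and put on Affymetrix yeast arrays, as the labels' protocols state. The deposited table gives 1 value per probe set and array, read as log2 signal from its range of 4.85 to 12.81. The authors summarised the probes with PLIER and used R 2.10.1, per the submitters' processing notes. How they corrected the background and normalized the arrays, and to which base the logarithm was taken, is not given in the sources used here. Folds therefore rest on reading the scale as log2.

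The platform's annotation gives 1 gene for 7244 of 10928 probe sets, several for 1 and none for 3683. Tests ran on the 5498 S. cerevisiae probe sets with 1 gene, and 1746 S. pombe probe sets set the background at their 95th percentile, 5.54 to 5.59 by array. No coordinates or sequences are given, since no genome or sequence table of the array's build was used. One mean per group was fitted over 18 arrays (limma 3.58.1 in R 4.3.3, lmFit and eBayes, 12 residual and 3.10 prior degrees of freedom). Two-sided p-values of 12 contrasts were adjusted by the Benjamini and Hochberg method, each contrast over its 5498 probe sets, and a call is an adjusted p under 0.05. The steps were tested on simulated data. For the length trend, each array's deviations from the gene means were smoothed on coding length (loess, span 0.5), and 96.8% of these lengths were multiples of 3. The number of arrays limits the precision.

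Factors, lists and naming rule were chosen with earlier results of these data known. The rule gives per-array values for the factor with the smallest p of each role in the oxygen effect in NC and for up to 4 called against the majority, and names up to 4 factors with the smallest p in a contrast. For up to 3 genes by smallest p of each list, values may be given in 2 contrasts. NOC4, NOP13, NOP2, NOC2 and NOC3, the comparison of RRP15 with NOC4, and values of named factors in further groups were chosen after their values were seen. Tried as alternatives were quantile normalization, median centring, leaving out dim probe sets, trended and robust eBayes, a fit per pair of groups, a replicate block, and the removal of single arrays. Removing the length trend and the array labelled aerobic AAP replicate 3 together was added after seeing the data.

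No label ties a replicate number to a batch. Deviations from group means correlated above 0.1 for each of the 3 numbers between aerobic AAC and NC (0.126, 0.233 and 0.326) and between aerobic AAC and AAP (0.168, 0.249 and 0.456), and for no other pair of groups compared. The replicate block is given for these comparisons, with the count of calls and the calls that it takes away.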

Additional observations from a re-analysis of the deposited data

Results flagged for a closer look

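Differences between strains in their oxygen effect were tested by the interaction terms, and those that passed are listed for a second look. For AAP against NC 25 factors passed, where 12.5% of all probe sets did. Among them were RRP14 at 0.40, UTP25 at 0.54, RRP5 at 0.89 and RRP12 at 0.65 log2 units (limma). For AAC against NC 1 factor passed with all arrays, RRP14 at 0.37, where 2.87% of all probe sets did, so that count did not stand out. Without the array labelled aerobic AAP replicate 3, which enters here only through the shared spread, 21 passed. Over all probe sets 12.1% then did. For AAC against AAP 2 passed, RRP5 at -0.78 and UTP10 at -0.47, where 3.55% did, a share near that of the factors. With the coding length trend removed neither RRP5 nor UTP10 passed (limma, adjusted p = 0.0562 and 0.177). Without the array labelled aerobic AAP replicate 3 RRP5 stood at -0.64 and UTP10, no longer called, at -0.38.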

How the results depend on the processing

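Counts of called factors (of 56, limma) that moved are given by setting. Fits to only the groups compared gave 3 for the oxygen effect in AAP, 51 for aerobic AAC against NC, 0 for aerobic AAC against AAP, 1 for anaerobic AAC against NC, and 21, 10 and 1 for the interactions of AAC with NC, AAP with NC and AAC with AAP. For aerobic AAC against AAP trended and robust eBayes, the replicate block, and the block with the length trend removed each gave 5. For the interaction of AAC with NC quantile normalization, median centring and the replicate block each gave 3, removal of the length trend 2, and that with the block 4. For the interaction of AAC with AAP median centring gave 1, removal of the length trend 0, and that with the block 1, as it did for anaerobic AAC against NC. With both the length trend and the array labelled aerobic AAP replicate 3 removed, counts were 19, 50, 48, 4, 27 and 1 for the oxygen effect in AAP, aerobic AAC against NC and against AAP, anaerobic AAC against NC, and the interactions of AAC with NC and with AAP.

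With single arrays left out, counts ranged from 3 to 16 for the oxygen effect in AAP, 15 to 48 for aerobic AAC against NC, 0 to 46 for aerobic AAC against AAP, 0 to 5 for anaerobic AAC against NC, 12 to 41 for anaerobic AAP against NC, and 1 to 21, 7 to 36 and 1 to 8 for the interactions. They ranged from 41 to 50 for the oxygen effect in NC, 15 to 29 for that in AAC and 30 to 46 for anaerobic AAC against AAP. The median changed sign in some settings: for the oxygen effect in AAP it ranged from -0.0689 to 0.1044 with single arrays left out and was -0.0873 with length trend and array both removed, where RRP12, UTP10 and UTP21 stood at -0.21, -0.15 and -0.14. For aerobic AAP against NC it ranged from -0.151 to 0.0083 and was 0.0132 with both removed, and for the interaction of AAC with AAP it was 0.0050 with both removed. The cause was not tested. Outside the aerobic comparisons with AAC the replicate numbers mark no known pairing, and the block gave counts of 21, 6 and 44 for the oxygen effects in AAC, AAP and NC.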

Other observations

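NOP53, a late factor of the large subunit, read 7.58, 8.25 and 8.31 in anaerobic NC, against 8.04, 8.08 and 8.09 in aerobic NC, so that 1 anaerobic array lay far below the other 2. It read 7.59, 7.68 and 8.0 in anaerobic AAC, and it was called in none of the 12 contrasts (limma). NOP13 read 7.95, 8.0 and 7.74 in aerobic AAC and 8.54, 8.43 and, on the array labelled aerobic AAP replicate 3, 7.62 in aerobic AAP, against 8.51, 8.54 and 8.53 in aerobic NC. NOP6, a small subunit factor, read 8.48, 8.33 and 8.57 in anaerobic AAP, against 8.21, 7.95 and 7.87 in anaerobic NC, a difference of 0.45 ± 0.101 (adjusted p = 0.00766). These genes were chosen after their values were seen.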
